A study of Mus musculus with 8 samples.

Results

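RUNX1S291fs is a frameshift form of RUNX1, the transcription factor that sets up and maintains blood stem cells. The 4 arrays of LSK cells that carried RUNX1S291fs were compared with the 4 arrays of LSK cells that did not. LSK cells are the lineage-negative, Sca-1-positive, c-Kit-positive fraction of the marrow, which holds stem cells and early multipotent progenitors. Carrier arrays were chosen by their labels alone, 4 of 8 arrays in all. Of 13548 genes tested, 1164 had levels on the 4 carriers that did not overlap the levels on the 4 non-carriers.

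Every mouse was a lethally irradiated C57BL/6 recipient of CD45.2 donor stem cells and of rescuing wild-type CD45.1 marrow. All donor cells carried Cre-ERT, an inducible recombinase, and were transduced with a retrovirus. The carriers, all of CD45.2 cells, were RUNX1_mutant (RUNX1S291fs, Ezh2wt/wt), Double_mutant (RUNX1S291fs with Ezh2flox/flox deleted after the graft), Double_MDS (both lesions, myelodysplastic syndrome) and Double_MDS_ML (both lesions, myelodysplastic syndrome with myeloid leukemia). The non-carriers were WT (empty virus, Ezh2wt/wt, CD45.2), Ezh2_deleted (empty virus, Ezh2 deleted, CD45.2) and the wild-type CD45.1 competitors CD45.1_in_RUNX1_mutant and CD45.1_in_double_mutant, taken from recipients of RUNX1S291fs cells or of RUNX1S291fs cells with Ezh2 deleted. The 4 CD45.2 arrays of month 4 pooled cells of 2 to 4 mice each, both CD45.1 arrays were also of month 4, and each moribund array came from 1 mouse. No label used here gives the age of the moribund mice.

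RUNX1 binds DNA together with its partner CBFB through its Runt domain and recruits activators or repressors through its C-terminal part. It is known for its work in stem cells, megakaryocytes and lymphocytes, and mutations of RUNX1 occur in human myelodysplastic syndrome and myeloid leukemia. Frameshifts near the C terminus leave the Runt domain in place, so the protein can still bind DNA.

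Levels below are log2 signal relative to the 75th percentile of the array, read from 1 probe per gene, and differences are log2 carrier mean minus non-carrier mean. Each condition has 1 array, so p-values measure the spread between arrays of unlike genotype and stage within each class, and separate cultures or litters are not stated. Ezh2 was deleted in 3 of the 4 carriers and in 1 of the 4 non-carriers. Moribund mice gave 2 carriers and 0 non-carriers, and CD45.1 cells gave 2 non-carriers and 0 carriers. Stage and CD45 allele thus go partly with RUNX1S291fs. Slide 1 held WT, Double_mutant and Double_MDS, slide 2 held Ezh2_deleted, RUNX1_mutant and both CD45.1 arrays, and slide 3 held Double_MDS_ML. Probes well above background made up 51.2% ± 2.72 (SD, n = 4) of all probes on carriers and 49.9% ± 4.67 (SD, n = 4) on non-carriers (exact permutation test, two-sided, p = 0.6857).

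The labelled cell type was checked on its sort markers. Kit lay between 4.06 and 5.11 on all 8 arrays. Ly6a, which encodes Sca-1, lay between 3.17 and 4.14 on the 6 month 4 arrays but at 0.53 on Double_MDS and 1.18 on Double_MDS_ML. Cd34, a progenitor surface marker, was likewise at 4.25 and 3.76 on these arrays against 7.54 to 8.18 on the others. Itgam, which encodes the myeloid lineage marker CD11b, was 5.27, 5.52, 6.08 and 5.73 on the carriers in the order RUNX1_mutant, Double_mutant, Double_MDS, Double_MDS_ML, and 4.86, 4.62, 4.89 and 4.55 on the non-carriers in the order WT, Ezh2_deleted, CD45.1_in_RUNX1_mutant, CD45.1_in_double_mutant. All carriers were above all non-carriers for Itgam, although the cells were sorted as lineage-negative. The part of marker content in the results was not tested. Values of other genes follow in the same order. Ddx3y and Eif2s3y, genes of the Y chromosome, were well above background on Ezh2_deleted and Double_MDS_ML only, 1 array of each class.

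The targeted genes were read first. Runx1 was 4.41, 3.47, 5.31 and 4.66 on the carriers and 3.04, 3.38, 3.25 and 3.55 on the non-carriers. The classes overlapped at a single pair, since Double_mutant was below CD45.1_in_double_mutant. The means were 4.46 ± 0.76 and 3.30 ± 0.22 (SD, n = 4 each, exact permutation test, two-sided, p = 0.05714, where the smallest p that 70 arrangements allow is 0.02857). Ezh2, the methyltransferase of the Polycomb repressive complex PRC2, was 3.40, 3.42, 3.29 and 3.10 on the carriers and 3.46, 3.51, 4.01 and 3.85 on the non-carriers. The Ezh2_deleted array was not below WT, so this probe does not show the deletion, and Ezh2 status is given as labelled. Ezh2 averaged 3.31 ± 0.15 on carriers and 3.71 ± 0.26 on non-carriers with no overlap (SD, n = 4 each, exact p = 0.02857). Cbfb averaged 5.62 ± 0.29 and 6.09 ± 0.21 (SD, n = 4 each, exact p = 0.05714). After adjustment over the 3 genes each p was 0.05714, and limma's adjusted p over all genes was 0.25 for Runx1, 0.41 for Cbfb and 0.44 for Ezh2. Labels and files do not say whether these probes read the retroviral transcript or the deleted exons, so they check neither lesion.

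Across the genome, 503 genes were higher on every carrier than on every non-carrier (3.71% of genes tested) and 661 were lower (4.88%), together 8.59%. The class means were at least 2-fold apart for 202 of the higher and 392 of the lower genes. The median difference was 0.88 among the higher genes and -1.33 among the lower genes, against -0.054 over all genes tested. A gap of at least 1 log2 between the nearest arrays of the classes was seen for 32 higher and 86 lower genes. Genes well above background on all 8 arrays made up 396 of the higher and 448 of the lower genes, and the others may have passed the filter on dim probes through 1 class only. The membership edge is thin: Scrt2 was inside by 0.00026 and Dnaja4 outside by 0.00027.

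Limma's adjusted p passed 0.05 for 74 genes (0.546%), of which 17 rose (0.125%) and 57 fell (0.421%) in carriers, and all 74 were non-overlapping. Their differences ran from 1.21 to 5.85 in size. An unadjusted p under 0.05 was found for 1785 genes. Of the 57 genes that fell, 28 were not well above background on any carrier, and of the 17 that rose, 4 were not well above background on any non-carrier. The count was 5 with the slide as a block, 2 with terms for Ezh2 deletion and moribund stage, and 29 on the month 4 arrays alone. It was 9 without WT, 36 without Ezh2_deleted, 185 without RUNX1_mutant, 150 without Double_mutant, 40 without Double_MDS and 29 without Double_MDS_ML. Without CD45.1_in_RUNX1_mutant the count was 76, and without CD45.1_in_double_mutant 7.

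**Figure D1:**
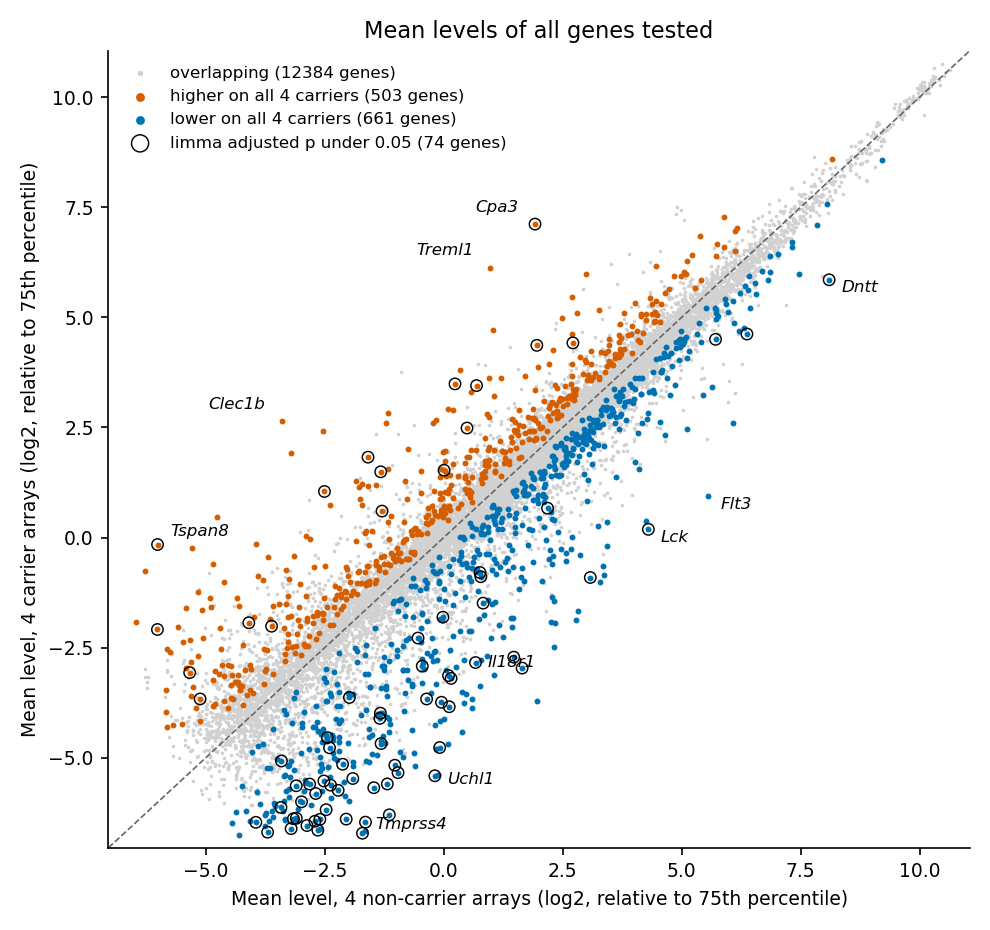
Mean level of each of 13548 genes on the 4 non-carrier arrays (x axis) and on the 4 carrier arrays (y axis), both log2 relative to the array's 75th percentile. Orange points are the 503 genes higher on all 4 carriers, blue points the 661 lower, grey points overlap, rings mark the 74 genes with a limma adjusted p under 0.05, and the dashed line marks equal means. Cpa3 and Tspan8 lie far above the line, and Tmprss4, Uchl1 and Lck far below it.

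Among genes that rose, Cpa3 had the widest gap. Cpa3 encodes carboxypeptidase A3, a protease of mast cell granules that some early progenitors also express. Its promoter, and those of Rag1 and Flt3 among the lower genes described further on, are shown because they hold the core letters bound by RUNX proteins, printed in capitals. The letters searched were TGTGGT and TGCGGT, or ACCACA and ACCGCA on the other strand. Sequences are from RefSeq (GRCm38.p6), 250 bases before and 50 after the start, 5′ to 3′ along the gene, all from the minus strand: chr3:20242132-20242431 for Cpa3, chr2:101649483-101649782 for Rag1 and chr5:147400440-147400739 for Flt3.
Cpa3: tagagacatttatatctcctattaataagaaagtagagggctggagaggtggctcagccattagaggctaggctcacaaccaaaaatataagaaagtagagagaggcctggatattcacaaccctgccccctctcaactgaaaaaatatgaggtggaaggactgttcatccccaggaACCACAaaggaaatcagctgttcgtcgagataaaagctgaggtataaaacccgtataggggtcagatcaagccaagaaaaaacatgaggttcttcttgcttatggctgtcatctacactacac
Rag1: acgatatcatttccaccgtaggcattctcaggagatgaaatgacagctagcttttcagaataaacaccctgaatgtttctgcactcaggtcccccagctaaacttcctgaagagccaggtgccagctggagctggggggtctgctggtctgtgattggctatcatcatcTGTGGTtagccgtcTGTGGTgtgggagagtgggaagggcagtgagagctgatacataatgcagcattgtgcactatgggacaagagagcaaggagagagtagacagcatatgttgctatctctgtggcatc
Flt3: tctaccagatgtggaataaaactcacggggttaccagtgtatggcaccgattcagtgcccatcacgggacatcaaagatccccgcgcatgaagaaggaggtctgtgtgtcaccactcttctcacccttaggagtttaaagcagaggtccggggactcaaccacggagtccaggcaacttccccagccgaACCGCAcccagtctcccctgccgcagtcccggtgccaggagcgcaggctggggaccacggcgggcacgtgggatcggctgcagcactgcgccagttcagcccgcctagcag
The match in the Cpa3 window began 73 bases before the start, those of Rag1 81 and 67 bases before it, and that of Flt3 61 bases before it. At least 1 match was found in 21.2% of the 10860 promoters of tested genes, in 17.3% of those of higher genes (70 of 404) and in 23.7% of those of lower genes (124 of 523). Among genes past limma's threshold it was 13 of 63. A match is a description of the letters and shows no binding.

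The level of Cpa3 was 6.76, 6.39, 8.47 and 6.85 on the carriers and 1.45, 1.74, 2.24 and 2.24 on the non-carriers. The classes were far apart, and Double_MDS was the highest array. The difference was 5.20 (SE 0.45), or 36.7-fold (limma adjusted p = 0.00596). It was 5.98 within slide 1 and 4.68 within slide 2, and the adjusted p was 0.0949 with the slide as a block. The month 4 carriers alone stood 4.66 above the non-carriers.

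Tspan8, a tetraspanin of the cell surface, was -1.30, -1.29, -1.02 and 2.97 on the carriers and -5.36, -6.11, -5.78 and -6.80 on the non-carriers, where it was not well above background on any array. Double_MDS_ML stood well above the other 3 carriers. The rise was at least 19.4-fold, where the dim class is held at the lowest signal well above background on each array (limma adjusted p = 0.0405, and 0.0472 with the slide as a block). With normexp background correction the measured difference of Tspan8 was 2.74 in place of 5.85, at an adjusted p of 0.19. Polm, which encodes DNA polymerase mu, a polymerase of end joining, was 0.99, 1.77, 2.34 and 2.20 on the carriers and -1.39, -2.58, -1.20 and -1.19 on the non-carriers. Every carrier was above every non-carrier, and Polm rose by 3.42 (SE 0.41, limma adjusted p = 0.0162, 0.17 with the slide as a block).

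Alox5, the lipoxygenase that starts leukotriene synthesis, was 0.52, 2.66, 1.28 and 1.51 on the carriers and -1.73, -1.18, -0.93 and -1.46 on the non-carriers, a rise of 2.82 (SE 0.43, adjusted p = 0.0342). Ptgs1, which encodes cyclooxygenase 1, was 3.42, 4.82, 4.59 and 4.62 against 2.46, 1.55, 1.35 and 2.46, a rise of 2.41 (SE 0.40, adjusted p = 0.0463). For both genes the RUNX1_mutant array was the lowest carrier. Gna14, a G protein alpha subunit, rose by 3.55 (SE 0.48), Gchfr, the feedback regulator of GTP cyclohydrolase, by 2.76 (SE 0.42) and Fer, a cytoplasmic tyrosine kinase, by 1.90 (SE 0.23). Cited2, a transcriptional co-regulator needed for stem cell maintenance in mice, rose by 1.70 (SE 0.27, adjusted p = 0.0405). Also past the threshold were Dbndd2 at 3.25, the unconventional myosin gene Myo7a at 2.00, the zinc finger gene Zfp963 at 2.16, Smim1, which carries the Vel blood group in humans, at 1.60, and Smagp at 1.52. The 3 genes seen on carriers only, Scamp5, Nbea and Tenm1 (beside Tspan8), rose at least 5.09-fold, 2.58-fold and 1.65-fold. Such bounds hold on the scale of the processed signal. With normexp the measured differences of Scamp5, Nbea and Tenm1 were 1.21, 0.58 and 0.33, and none of these calls held (adjusted p 0.19, 0.35 and 0.63). Zfp963 at 0.80 and Smim1 at 0.69 did not pass with normexp either (limma adjusted p 0.19 and 0.23).

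**Figure D2:**
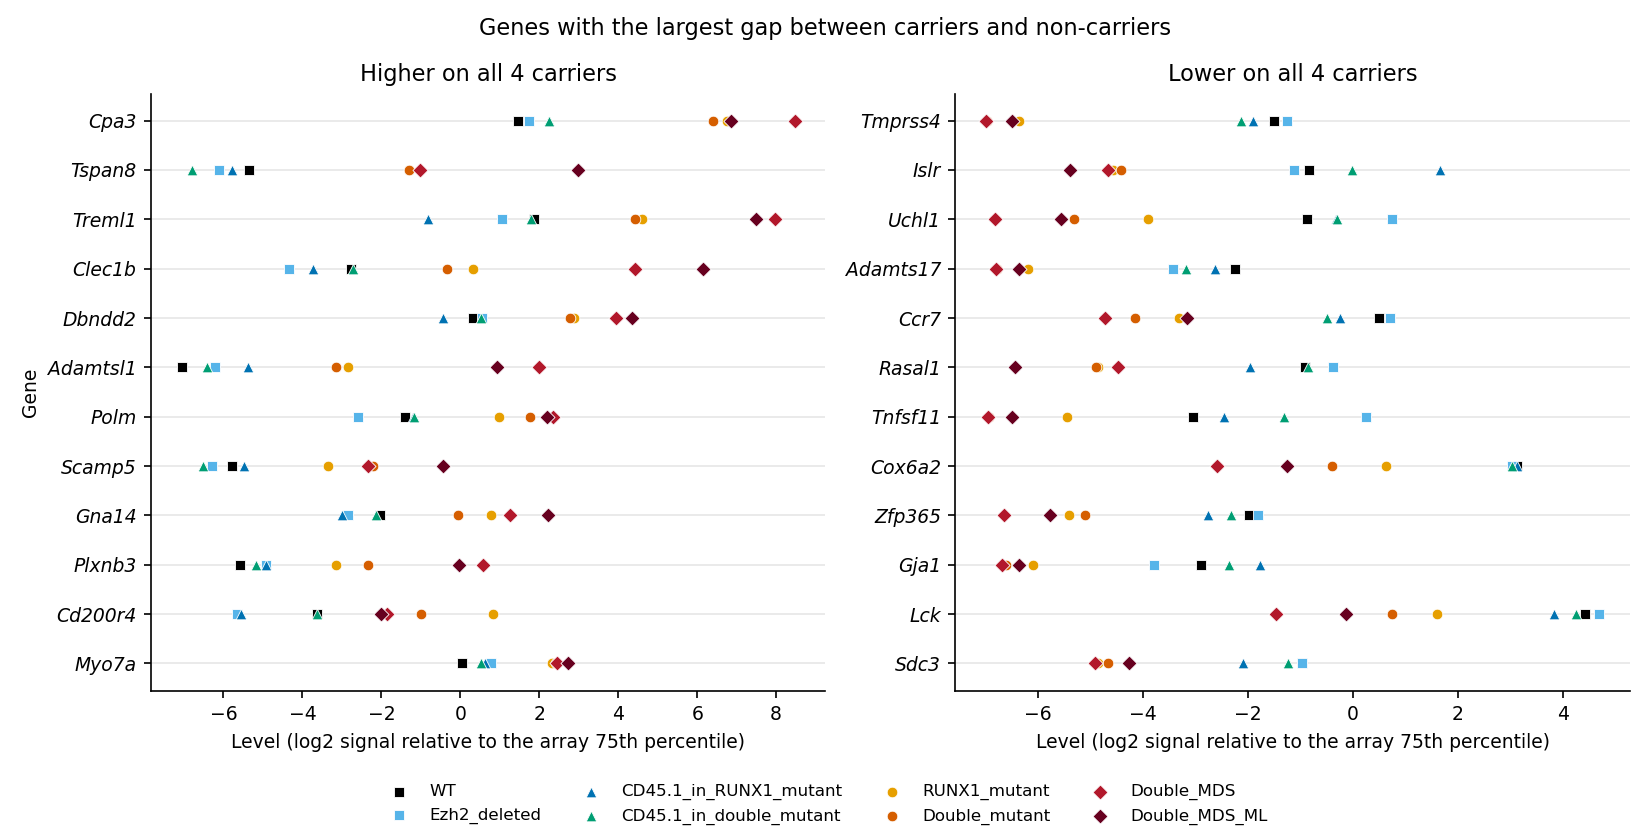
Level on each of the 8 arrays (x axis, log2 relative to the array's 75th percentile) of the 12 genes with the widest gap in each direction (y axis), among genes well above background on all 4 arrays of the higher class, with predicted genes and RIKEN clone names left out. Circles and diamonds are carriers, squares and triangles non-carriers. Cpa3 sits between 6.39 and 8.47 on the carriers and at most at 2.24 on the others, and Tmprss4 is at -6.37 or lower on every carrier.

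Among genes that fell, Tmprss4, a membrane serine protease, had the widest gap. It was -6.37, -6.98, -6.99 and -6.51 on the carriers, none of them well above background, and -1.51, -1.26, -1.91 and -2.14 on the non-carriers. The fall was at least 6.94-fold (measured difference -5.01, SE 0.27, limma adjusted p = 0.000437). With normexp background correction, which lifts dim signals, the measured difference was -1.48, still past the threshold. It also passed with the slide as a block (0.0472) and with terms for Ezh2 deletion and stage (-5.00, SE 0.38, adjusted p = 0.0412). Uchl1, a ubiquitin hydrolase best known from neurons, was -3.91, -5.33, -6.83 and -5.57 on the carriers and -0.87, 0.75, -0.32 and -0.30 on the non-carriers. No carrier was well above background for Uchl1, which fell at least 19.4-fold (limma adjusted p = 0.0136, 0.0949 with the slide as a block, measured difference -5.22 and -2.15 with normexp).

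Ccr7, the chemokine receptor that guides lymphoid cells, fell to -3.31, -4.16, -4.73 and -3.17 from 0.49, 0.71, -0.25 and -0.50 (difference -3.96, SE 0.42, adjusted p = 0.0121). Tnfsf11, which encodes the cytokine RANKL, fell at least 7.25-fold and Fzd1, a Wnt receptor, at least 2.65-fold. Sdc3, a heparan sulfate proteoglycan, fell at least 8.94-fold, Gja1, a connexin of gap junctions, at least 3.47-fold, and Adamts17, a secreted metalloprotease, at least 3.09-fold. With normexp Sdc3 was at -1.42 and still passed (adjusted p = 0.0197), whereas Tnfsf11 at -1.57, Gja1 at -0.83, Adamts17 at -0.75 and Fzd1 at -0.65 did not (adjusted p from 0.18 to 0.33). Tyro3, a receptor tyrosine kinase of the TAM family, and Sirt3, a mitochondrial deacetylase, were well above background on all 8 arrays and fell by smaller steps, -1.79 (SE 0.25) and -1.21 (SE 0.19, adjusted p = 0.0405). Cox6a2, a cytochrome c oxidase subunit best known from muscle, was 0.63, -0.40, -2.59 and -1.26 on the carriers and between 3.03 and 3.13 on all 4 non-carriers (adjusted p = 0.0318).

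Islr, a secreted protein with leucine-rich repeats, was -4.58, -4.43, -4.67 and -5.39 on the carriers and -0.85, -1.13, 1.66 and -0.025 on the non-carriers. Every carrier was far below every non-carrier, and Islr fell by 4.68 (SE 0.58, adjusted p = 0.0169). With normexp Islr was at -2.23 and did not pass (limma adjusted p = 0.0746). Rasal1, a Ras GTPase-activating protein, fell by 4.14 (SE 0.49, adjusted p = 0.0147) and the zinc finger gene Zfp365 by at least 4.87-fold (-0.86 with normexp, adjusted p = 0.088). Cd200r4, a receptor of the CD200R family, had a wide gap on the higher side but missed the threshold (3.59, SE 0.74, adjusted p = 0.0979). Also past the threshold, on the lower side, was the heparan sulfatase gene Sulf2 at -3.24 (-1.88 with normexp, limma adjusted p = 0.0259). So were the G protein-coupled receptor gene Gpr174 and the endothelial proteoglycan gene Esm1, neither well above background on any carrier. They fell at least 2.86-fold and 8.18-fold. With normexp they were at -0.57 and -1.33, and neither call held (limma adjusted p 0.21 and 0.18).

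The slides were also compared one by one, since each of the first 2 held arrays of both classes. The difference of Tspan8 was 4.20 within slide 1 and 4.93 within slide 2, that of Polm 3.45 and 2.64, and that of Tmprss4 -5.47 and -4.60. Uchl1 gave -5.20 and -3.95, Lck -4.78 and -2.65, Dntt -2.37 and -2.49, Il18r1 -2.92 and -4.79, and Il18rap -1.99 and -1.90. The shared sign of the 2 slides follows from the non-overlap of these genes over all arrays. With the slide as a block the genes past limma's threshold were Tmprss4, Tspan8, Fzd1, Cfc1 and Plch1. Slide 3 held Double_MDS_ML alone, so that array adds nothing to the class difference in this fit. With normexp on all 8 arrays, without the block, Tmprss4 passed (limma adjusted p = 0.0232). Tspan8 at 2.74, Fzd1 at -0.65, Cfc1 at -0.95 and Plch1 at -0.51 did not (0.19, 0.33, 0.13 and 0.46).

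Lymphoid-primed progenitor genes were mostly lower in carriers. Of 16 such genes 15 were tested, 9 were lower on every carrier and 0 higher, against 4.88% lower and 3.71% higher over all genes tested, and the median difference was -1.57. Dntt, the terminal transferase that adds bases at V(D)J joints, was 5.52, 6.49, 5.48 and 5.92 on the carriers and 8.35, 8.79, 7.39 and 7.86 on the non-carriers. The classes were separate, and Dntt, the 1 list member past limma's threshold, fell 4.74-fold (SE 0.36 on the log2 scale, adjusted p = 0.0405, 0.27 with the slide as a block). Rag1, which encodes the recombinase that cuts antigen receptor genes, was -6.24, -6.95, -6.96 and -6.49 on the carriers, none well above background, and -2.02, 0.55, -4.63 and -0.48 on the non-carriers. That is at least 7.24-fold lower, but the spread among non-carriers was wide and adjusted p was 0.0787. With normexp the measured difference of Rag1 was -1.88 (limma adjusted p = 0.14).

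Il7r, the receptor of the lymphoid growth factor interleukin-7, was -3.63, -2.68, -6.95 and -3.42 on the carriers and -0.034, 0.85, -1.18 and 0.036 on the non-carriers (adjusted p = 0.11). Flt3, the receptor tyrosine kinase of multipotent and lymphoid-primed progenitors, was 4.15, 3.23, -2.34 and -1.28 against 5.71, 5.90, 4.86 and 5.75 (adjusted p = 0.22). Both genes were separate between classes, and for Flt3 both moribund arrays were far below the month 4 carriers. Blnk, a B cell adaptor, averaged -0.65 ± 0.96 on carriers and 3.34 ± 1.93 on non-carriers (SD, n = 4 each), and Ikzf1, a lymphoid transcription factor, 1.43 ± 0.51 and 2.43 ± 0.14. Cnn3, a calponin, differed by -4.30, and the transcription factor genes Bcl11a and Satb1 by -1.51 and -1.23. The summed signal of the list, in units of the array's 75th percentile, was 183.4 to 242.4 on carriers and 334.2 to 693.0 on non-carriers. Its largest member on the non-carriers was Dntt, a separate gene, so the sum does not describe the list as a whole. In bulk samples, fewer cells of a type and less RNA per cell cannot be told apart.

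B cell genes gave 4 lower and 1 higher of 10 tested (4.88% and 3.71% over all genes), with a median difference of -2.92. Vpreb1, part of the surrogate light chain of early B cells, was -1.18, -0.16, -0.75 and -1.28 on the carriers and 1.23, 7.06, 1.27 and 3.88 on the non-carriers. All carriers were below all non-carriers, and Ezh2_deleted stood far above the other non-carriers, as it did for Vpreb3, Igll1 and Ebf1 (adjusted p 0.20, 0.23, 0.21 and 0.27). Ebf1, the transcription factor that starts the B cell programme, was not well above background on any carrier. Its mean was at least 5.39-fold lower on the scale of the processed signal. The non-carriers were widely spread for Ebf1, at -4.24, 1.49, -4.85 and -0.69. With normexp its measured difference was -1.54 (limma adjusted p = 0.37). Cd22, a B cell lectin, was the member that lay the other way, at 0.74 (adjusted p = 0.33). The summed signal of the list was 6.1 to 22.5 on carriers and 27.8 to 300.9 on non-carriers, the last on Ezh2_deleted. The mature B cell genes Pax5 and Ms4a1 were well above background on 1 array each and were not tested.

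T and NK cell genes gave 6 lower and 0 higher of 19 tested (4.88% and 3.71% over all genes), with a median difference of -1.17. Lck, the kinase of the T cell receptor that lymphoid progenitors also express, was 1.61, 0.74, -1.47 and -0.14 on the carriers and 4.42, 4.69, 3.83 and 4.26 on the non-carriers. The classes did not overlap, and Lck fell 17.3-fold (difference -4.11, SE 0.59, limma adjusted p = 0.029, 0.31 with the slide as a block). Tcf7, a transcription factor of T and innate lymphoid progenitors, was -5.18, -4.07, -5.29 and -4.56 against -2.46, -2.37, -1.92 and -2.84 and fell by 2.38 (SE 0.33, adjusted p = 0.0257). Lck and Tcf7 are the list members past limma's threshold. With normexp Tcf7 was at -0.75 and did not pass (limma adjusted p = 0.21), whereas Lck was at -3.79 and still passed (0.0197). Nkg7, a granule protein of killer cells, was 2.71, 4.40, 1.52 and 1.80 on the carriers and 5.72, 5.57, 7.07 and 5.92 on the non-carriers, separate but at an adjusted p of 0.0637. Zap70, a T cell receptor kinase, Cd5 and Thy1 were also separate (adjusted p 0.0545, 0.12 and 0.17). The summed signal was 27.0 to 39.7 on carriers and 96.0 to 173.0 on non-carriers. Its largest member on the non-carriers was Nkg7, a separate gene, so the sum does not describe the list as a whole. Cd8a was not well above background on any array and Bcl11b was so on 1. Ptprcap, which encodes the CD45-associated protein of lymphocytes and is in no list, fell by 1.75 (SE 0.27, adjusted p = 0.0341).

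The list of dendritic cell and MHC class II genes gave 4 lower and 0 higher of 11 tested (4.88% and 3.71% over all genes), with a median of -1.49. The median was -0.50 on month 4 arrays alone, -1.28 within slide 1 and -0.54 within slide 2. The mean level of the list was 2.22 on RUNX1_mutant and 1.98 on Double_mutant, either side of WT at 2.07, and lower on the moribund arrays at -0.026 and 1.02. The other non-carriers were higher, Ezh2_deleted at 2.51, CD45.1_in_RUNX1_mutant at 3.37 and CD45.1_in_double_mutant at 3.26. H2-Aa, a chain of the class II molecule that presents peptides, was -0.93, -1.65, -3.83 and -2.75 on the carriers and 0.16, 1.25, 0.49 and 2.07 on the non-carriers, and H2-Eb1 differed by -2.57. Itgax, which encodes CD11c, was -1.12, -2.75, -3.80 and -1.31 on the carriers and close to 0 on the non-carriers (0.098, 0.13, 0.27 and 0.31). Adjusted p was 0.0904 for H2-Aa, 0.14 for H2-Eb1 and 0.12 for Itgax. Without RUNX1_mutant, 7 members of the list were lower, as were 1135 of all 13548 genes tested. Interferon-stimulated genes gave 5 lower and 0 higher of 18 tested (4.88% and 3.71% over all genes, median -0.83), among them the ubiquitin-like Isg15 at -0.74, Ifit3 at -1.26, Rtp4 at -2.25 and the oligoadenylate synthetase Oas1a at -0.91, none past limma's threshold. Without CD45.1_in_RUNX1_mutant 9 members were lower and on CD45.2 arrays only 10, against 3 with normexp and 3 with quantile normalization. Over all genes tested the lower genes numbered 1062, 1252, 660 and 691 in these settings. The median was -0.44 on month 4 arrays alone and -0.13 within slide 2. Bst2, the tetherin gene, is in both lists.

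Megakaryocyte and platelet genes were the list with the most members higher in carriers: 7 of 21 tested were higher on all 4 carriers and 0 lower, against 3.71% over all genes. The median difference was 2.42, and 20 of 21 differences were positive. Treml1, a receptor of platelet granules, was 4.60, 4.42, 7.97 and 7.49 on the carriers and 1.87, 1.06, -0.81 and 1.79 on the non-carriers. Clec1b, the podoplanin receptor CLEC-2, was 0.33, -0.33, 4.41 and 6.15 against -2.78, -4.35, -3.74 and -2.71. In both genes the classes were separate and the moribund arrays were far above the month 4 carriers, and adjusted p was 0.0673 and 0.12.

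The integrin gene Itga2b, which encodes the platelet receptor subunit CD41, was 4.48, 2.80, 5.83 and 5.69 on the carriers and 1.98, 0.56, -0.47 and 2.07 on the non-carriers. Ppbp, a platelet chemokine, was 0.27, -0.46, 3.77 and 4.09 against -1.58, -3.68, -5.28 and -2.27. Rab27b, a GTPase of granule release, differed by 2.84, Alox12, the platelet lipoxygenase, by 3.04 and Gp1ba, a subunit of the von Willebrand factor receptor, by 2.61. All 5 were separate between classes, with adjusted p from 0.11 to 0.22, so 0 members passed limma's threshold. The summed signal of the list was 190.7 and 176.0 on the month 4 carriers, 949.6 and 728.6 on the moribund carriers and 81.3 to 158.9 on the non-carriers. Tubb1, a tubulin of platelets, was well above background on 1 array. Without Double_mutant 11 members were higher (934 of 13548 genes tested), and 4 when every array had to be well above background (396 of 11299). On month 4 arrays alone the median was 1.05.

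Mast cell and basophil genes differed from Cpa3 in their pattern. Of 15 tested, only Cpa3 was separate between the classes, against 3.71% higher and 4.88% lower over all genes. The differences were positive for 13 genes, with a median of 1.64. Mcpt4, a mast cell chymase, was 2.65, 2.92, -3.91 and -6.27 on the carriers and -7.13, -4.97, -1.10 and -2.48 on the non-carriers. Both month 4 carriers were above all non-carriers, and both moribund carriers were below the CD45.1 arrays. Ms4a2, the beta chain of the high-affinity IgE receptor, was -1.86, -2.35, -5.82 and -2.64 against -7.03, -6.24, -5.39 and -6.46. It was well above background on 3 carriers and 0 non-carriers. With normexp the measured difference of Ms4a2 was 0.61 (limma adjusted p = 0.46). On the month 4 arrays alone 10 of the 15 genes were higher on both carriers than on all 4 non-carriers, and without Double_MDS_ML 4 were. Over all 13548 genes tested, 1117 and 659 were higher in these settings, where fewer arrays separate more easily. The summed signal, which includes Cpa3, was 427.2 to 825.7 on carriers and 200.0 to 414.4 on non-carriers. The mean level of the list overlapped between the classes. It was 2.17, 3.07, 1.54 and -0.90 on the carriers and -1.07, -0.17, 0.68 and 0.19 on the non-carriers. Mcpt1 was not well above background on any array.

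The interleukin-1 receptor cluster held genes on opposite sides. These neighbouring genes encode receptor chains of interleukin-1, interleukin-18 and interleukin-33. Il18r1, the binding chain for interleukin-18, was -4.08, -3.18, -1.54 and -2.55 on the carriers and 0.56, 1.76, -0.028 and 0.38 on the non-carriers. The classes were separate, and Il18r1 fell 11.4-fold (difference -3.51, SE 0.58, limma adjusted p = 0.0457, 0.25 with the slide as a block). With terms for Ezh2 deletion and stage it was -4.61 (SE 0.39, adjusted p = 0.0412), 1 of the 2 genes past the threshold there.

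Il18rap, the accessory chain of the interleukin-18 receptor, was -2.28 ± 0.26 on the carriers and -0.54 ± 0.38 on the non-carriers (SD, n = 4 each), and fell by 1.74 (SE 0.25, adjusted p = 0.029, 0.14 with the slide as a block). Il1r1, the signalling receptor of interleukin-1, was also lower on every carrier, at -1.22 (adjusted p = 0.15). Il1rl1, which encodes ST2, the interleukin-33 receptor of mast cells and innate lymphoid cells, lay the other way. It was 2.20, 3.63, 5.05 and 0.43 on the carriers and -1.73, -1.81, -0.21 and -0.95 on the non-carriers (difference 4.00, SE 0.90, adjusted p = 0.12). The full list of the cluster and its signalling also holds ligand and signalling genes, such as Il18, Il33 and Myd88. Of 12 genes tested in that list, 3 were lower and 1 was higher (4.88% and 3.71% over all genes), and the median was -0.44.

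Genes seen in 1 class only made up a small group. Well above background on all 4 carriers and on 0 of 4 non-carriers, with no overlap, were 12 genes, and 18 had the reverse pattern. Plxnb3 and Plxna2, plexin receptors of semaphorins, were -3.16, -2.35, 0.58 and -0.027 and -2.97, -3.21, 0.015 and -0.42 on the carriers. They were at least 9.16-fold and 6.79-fold higher than on the non-carriers, with both moribund arrays above both month 4 carriers. Adamtsl1, a secreted matrix protein, was at least 12.7-fold higher. Among the reverse, Bcat1, a branched-chain aminotransferase, was -6.05, -4.46, -6.76 and -6.37 on the carriers and -3.77, -0.96, -2.46 and -2.31 on the non-carriers, at least 4.21-fold lower. Pdcd1, which encodes PD-1, the inhibitory receptor of lymphocytes, was at least 3.99-fold lower (adjusted p = 0.0833). With normexp the measured differences were 1.70 for Plxnb3, 1.38 for Plxna2, 2.36 for Adamtsl1, -0.88 for Bcat1 and -0.63 for Pdcd1, none past the threshold.

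Of 26 tested genes described as RUNX1 targets, 2 were higher (Alox12 and Itga2b) and 3 lower (Ebf1, Rag1 and Tcf7), with a median of 0.15. These are 7.69% and 11.5% of the list, against 3.71% and 4.88% over all genes tested. Of 6 tested genes of the Runx family and its partners, 0 were separate. Among 11 PRC2 subunits, Jarid2 was higher at 0.67, and Eed and Ezh2 were lower at -0.54 and -0.40 (3.71% higher and 4.88% lower over all genes). Their gaps between the nearest arrays of the classes were only 0.050, 0.077 and 0.039, and none passed limma's threshold.

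Stem cell genes had a median of -0.13 over 20 tested. The counts of separate members below stand beside 3.71% higher and 4.88% lower over all genes tested. Hoxa9, a homeobox gene of stem cells and leukemia, was -1.24, -2.26, -3.08 and -3.89 on the carriers and -0.47, -0.056, -0.75 and -0.10 on the non-carriers, and Mecom, a stem cell transcription factor, was -3.78, -3.20, -6.78 and -6.27 against -1.44, -2.32, -3.05 and -2.42. These were the 2 separate members, and both were lower with the moribund arrays lowest (adjusted p 0.12 and 0.22). Neutrophil granule genes had 15 of 15 differences positive and a median of 1.11, but 0 members were separate. Their median was 4.77 within slide 1 and 0.080 within slide 2. Mitosis genes had 20 of 20 differences negative and a median of -0.43, but the median was 0.065 on month 4 arrays alone, 0.39 within slide 1 and -0.74 within slide 2, and the separate member was Top2a, the topoisomerase of dividing cells, at -0.94 (adjusted p = 0.27). Of the 18 genes of NF-kappaB signalling and inflammation, the separate member was the chemokine gene Ccl3, lower at -3.89 (adjusted p = 0.24). No member was separate among 14 granulocyte and monocyte progenitor genes, 18 immediate early genes, 7 CDK inhibitors and 7 stromal and endothelial genes. Among 11 erythroid genes the separate member was Ermap, an erythroblast membrane protein, higher at 0.55 (adjusted p = 0.41), with -0.0064 when all its probes were averaged.

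**Figure D3:**
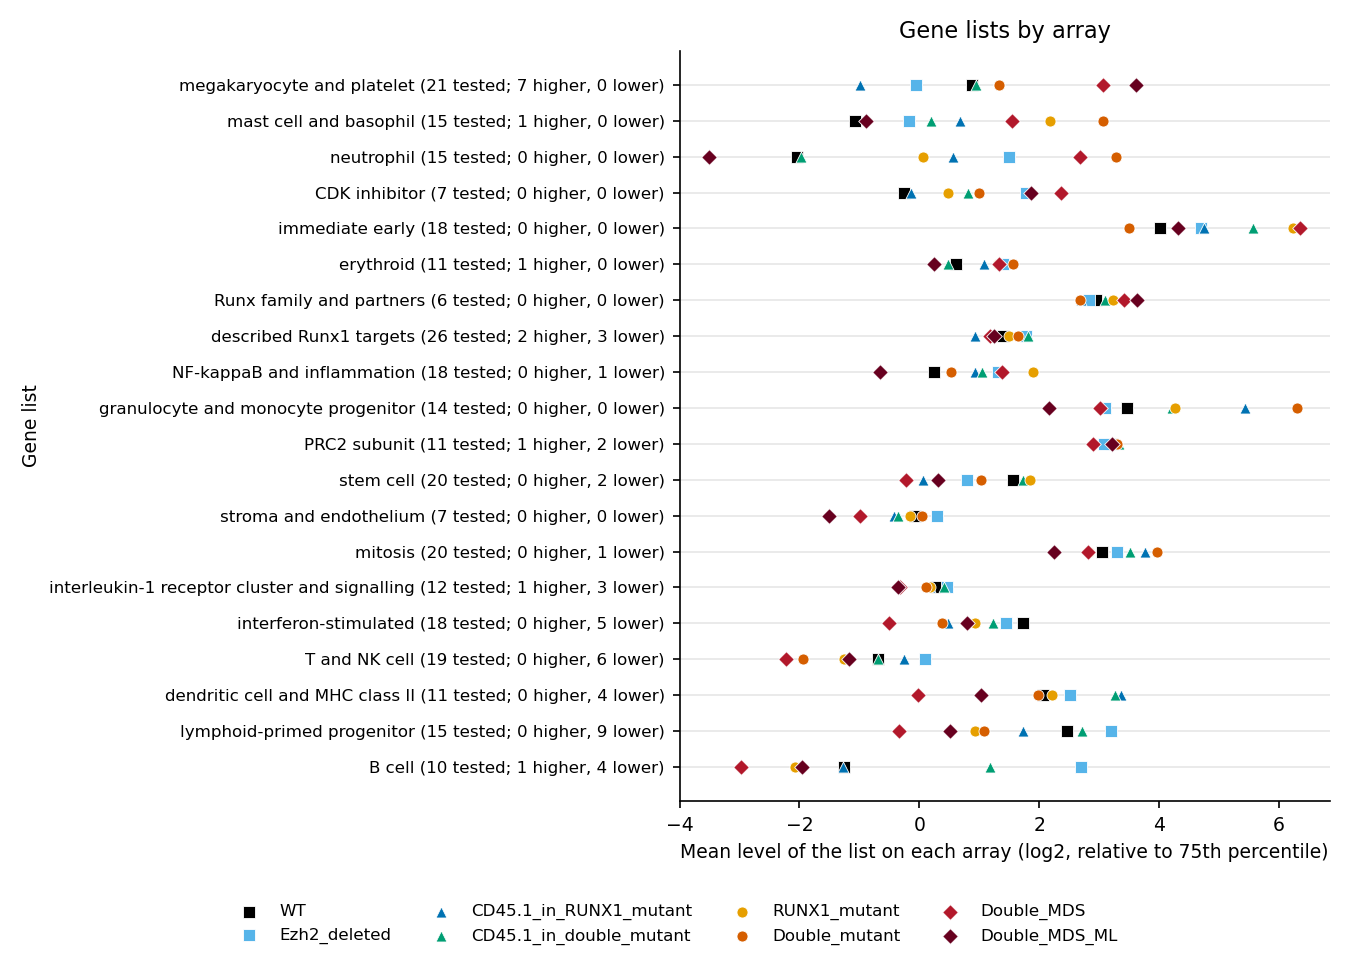
Mean level over the tested members of each gene list (y axis, with the counts of members higher and lower on all 4 carriers) on each array (x axis, log2 relative to the array's 75th percentile). Circles and diamonds are carriers, squares and triangles non-carriers. Lists are ordered by median difference, from megakaryocyte genes at 2.42 to B cell genes at -2.92.

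Each month 4 carrier was also set beside the CD45.1 competitor from the same kind of marrow, 1 array each and with no test. The labels do not say that both came from the same mice. RUNX1_mutant minus its competitor is given first and Double_mutant minus its competitor after it. Runx1 differed by 1.17 and -0.082, Ezh2 by -0.61 and -0.42, and Tmprss4 by -4.46 and -4.84. The list median was -0.61 and -1.37 for lymphoid-primed genes, -0.90 and -4.43 for B cell genes, and -0.77 and -1.15 for T and NK cell genes. Megakaryocyte genes had medians of 1.83 and 0.44, mast cell genes 1.77 and 3.69, and dendritic cell genes -1.38 and -1.04. These lists kept the side of the class difference in both kinds of marrow, which non-overlap fixes for their separate members. Interferon-stimulated genes at 0.41 and -0.78, neutrophil genes at -0.50 and 5.53 and mitosis genes at -0.93 and 0.46 had opposite signs. Fitted as 2 pairs with the marrow as a block, an alternative chosen after seeing the data, limma called 0 genes, with 564 at an unadjusted p under 0.05. This fit has 1 residual degree of freedom, so the count of 0 does not show that no gene differed.

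Many of these genes were further from the non-carriers in moribund mice. Both moribund carriers lay beyond both month 4 carriers for 275 of the 503 higher genes (54.7%), and 16.1% of all genes tested had both moribund arrays above both month 4 carriers. For lower genes it was 365 of 661 (55.2%), and for 27.9% of all genes tested both moribund arrays were below. The moribund arrays were short of both month 4 carriers for 21 higher and 22 lower genes. The choice of members favours values far from the non-carriers, so no test of the share is given. The carrier nearest to the non-carriers was RUNX1_mutant for 217 of the higher and 314 of the lower genes, and Double_mutant for 183 and 230.

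Individual genes fell on both sides of this pattern. Clec1b stood 3.39 above the non-carriers at month 4 and a further 5.29 higher in moribund mice, and Treml1 3.53 and 3.22. Flt3 was at -1.86 at month 4, with a further -5.50 between the stages. Tmprss4 was not well above background on any carrier, so its stages cannot be compared. Dntt was at -2.09 with -0.31 between the stages. Il18r1 was at -4.30 at month 4 and 1.58 higher in moribund mice, nearer to the non-carriers. Each stage has 2 carrier arrays, and disease stage, mouse and pooling cannot be told apart.

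**Figure D4:**
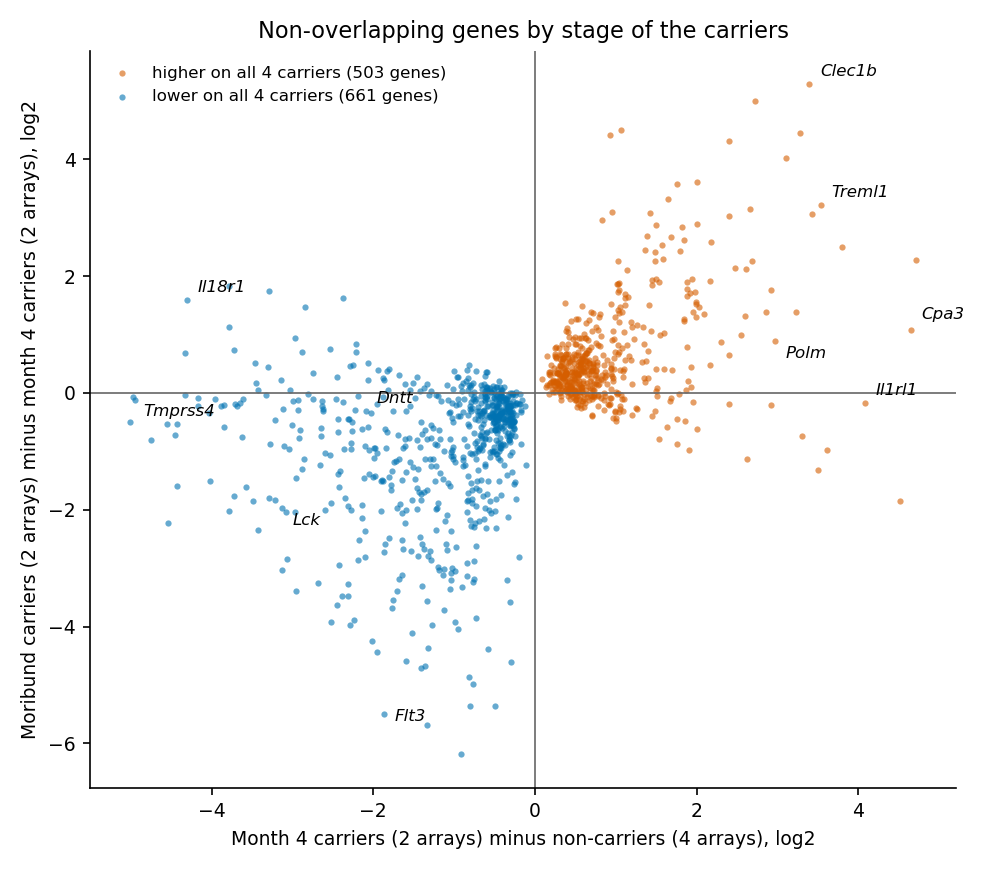
For the 1164 non-overlapping genes, the mean of the 2 month 4 carriers minus the mean of the 4 non-carriers (x axis, log2) and the mean of the 2 moribund carriers minus that of the 2 month 4 carriers (y axis, log2). Orange points are higher and blue points lower on all 4 carriers. Clec1b and Treml1 are at the upper right, Flt3 at the lower left, and Dntt near 0 on the y axis. Tmprss4 is at the left, dim on all 4 carriers.

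Other probes of the same genes gave a check on the probe chosen. The higher genes had 171 further probes, from 142 genes, and 153 of them had a difference of the same sign and 54 were again separate. For the lower genes 179 of 189 further probes had the same sign and 90 were separate. In either direction 1 further probe was separate the opposite way. Of 3892 further probes of overlapping genes, 5.58% were separate. Probes that disagree can lie in other transcripts of the gene, and this was not tested.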

How the data were processed

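RNA of sorted LSK cells (FACSAriaII, RNeasy Plus Mini, 20 ng amplified and labelled with Cy3) was measured on 8 one-colour Agilent arrays, per the labels' protocols. Per the file headers, the scanner files of Agilent Feature Extraction 10.7.1.1 hold the processed signal as an intensity with background removed and no scaling between arrays. The authors' series table holds signal on a linear scale: each column was the processed signal over a constant of its array for 99.7% to 99.8% of probes (within 0.01 log2), with 75th percentiles of 1.00 to 1.01 and medians of 0.0526 to 0.0671, so its scale is that ratio and genes were not centred.

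Each array gave 55681 probes after repeat spots were averaged, none saturated. Levels are log2 processed signal minus the array's 75th percentile, which ran from 185.7 to 474.1. Names came from RefSeq's table of GRCm38.p6: 27235 probes received a name, covering 20660 genes. For the 5476 genes with several probes the brightest was kept, and a gene was tested if at least 3 arrays marked it well above background. The classes were compared with limma 3.58.1 in R 4.3.3 (lmFit and eBayes, Benjamini-Hochberg over 13548 genes) and single genes with exact permutation tests in scipy 1.17.1. Two-sided tests were used throughout, and the limma step was tested on simulated data. The number of arrays limits the precision.

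Named genes were drawn from those past limma's threshold, the 12 widest gaps in each direction, genes seen in 1 class only, separate members of a gene list and the largest differences of a list. Not every such gene is named, the selection was made with the values known, and predicted genes and RIKEN clone names enter counts only. The members, lists and rules were chosen with earlier results of these data known. Background correction by normexp used the median spot and local background intensity, which are raw pixel values per the file headers, in place of the planned mean spot signal. Other alternatives changed the normalization, the probe filter, the arrays or the model's terms.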

Additional observations from a re-analysis of the deposited data

Results flagged for a closer look

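Single arrays stood apart from the other 3 of their class for 10 genes, out of 198 classes of 4 arrays examined for 99 genes, and chance alone marks about 1 class in 20. Among carriers, Tspan8 was 2.97 on Double_MDS_ML against -1.30 to -1.02 on the other carriers, so its rise was largest on that array. Ptgs1 was 3.42 on RUNX1_mutant against 4.59 to 4.82, and Ptprcap 3.95 on Double_mutant against 4.77 to 4.90. Ebf1 was -5.50 on Double_mutant against -6.02 to -5.97, none of them well above background. Ermap was 1.97 on Double_MDS against at most 1.15, and Oas1a 2.68 on Double_MDS against 4.45 to 4.57. Among non-carriers, Fzd1 was -3.85 on WT against -2.87 to -2.83, and Cd34 was 8.18 on WT against 7.84 to 7.88. Polm was -2.58 on Ezh2_deleted against -1.39 to -1.19, further from the carriers. Smagp was 0.47 on Ezh2_deleted against -0.17 to -0.13, nearer to the carriers.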

How the results depend on the processing

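The signs of the 74 genes past limma's threshold are fixed by their non-overlap where arrays are left out or slides blocked, and all 74 also kept their sign under normexp, quantile normalization and the mean of all probes. The count of 74 went to 20 when well above background was required on all 8 arrays, 29 on month 4 arrays only, 9 on CD45.2 arrays only, 5 with the slide as a block, 9 with a term for Ezh2 deletion, 2 with terms for Ezh2 deletion and moribund stage (807 at an unadjusted p under 0.05) and 1 without moderation of the variances, and ranged from 7 to 185 when 1 array was left out. Still past the threshold were 38 of the 74 under normexp, 54 under quantile normalization and 74 in the authors' series table. Cpa3 and Tmprss4 passed with any 1 array left out. Lck, Dntt, Il18r1 and Tspan8 did not pass without WT, without Ezh2_deleted or without CD45.1_in_double_mutant, nor did Polm and Uchl1 without WT or CD45.1_in_double_mutant. Ermap turned to -0.0064 with the mean of all probes. Counts of non-overlapping genes were 503 higher and 661 lower, and 1117 and 1001 on month 4 arrays only, 1373 and 1252 on CD45.2 arrays only, 1358 and 1385 when compared within slides, and 639 to 934 and 729 to 1405 with 1 array left out. Fewer arrays separate more easily by construction. Without RUNX1_mutant or Double_mutant the limma count was 185 or 150, and the cause was not tested. Normexp gave 366 higher and 660 lower, quantile normalization 516 and 691, no filter on dim probes 534 and 753, and the filter on all 8 arrays 396 and 448. With 1 array left out, the lower members numbered 9 to 11 for lymphoid-primed genes, 6 to 9 for T and NK cell genes and 4 to 5 for B cell genes (2 with the filter on all 8 arrays), and the higher members 7 to 11 for megakaryocyte genes (4 with that filter) and 1 to 4 for mast cell genes. Pairing by replicate number was not possible, since each group has replicate 1 only. With the marrow as a block over 4 arrays, an alternative chosen after seeing the data, limma called 0 genes (564 at an unadjusted p under 0.05). The marrow fit has 1 residual degree of freedom, so its count does not show that no gene differed. Leaving out 1 array keeps at least 3 in each class, and the arrays left are assumed to vary alike. Signal over background limits the genes dim in 1 class, for which only a bound is known.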

Other observations

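Probes without a gene name held a locus that separated the classes, chosen after its values were seen. The array's own annotation places 22 probes in intervals on chromosome 10 between 83181374 and 83249918, of a build not given in the sources used here. Of 13 probes on the plus strand 9 were tested, and 8 were lower on every carrier than on every non-carrier, with gaps of 0.98 to 3.08. The probe with the widest gap was -2.60, -3.31, -5.85 and -6.02 on the carriers and 0.48, 1.18, 0.93 and 0.69 on the non-carriers, in the order of arrays used above. Both moribund carriers were below both month 4 carriers. Of 9 probes on the minus strand 5 were tested, and 0 separated the classes. Over all 12029 tested probes without a gene name, 344 were higher and 323 lower on all carriers (5.54%).

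Among the genes well above background on all 4 arrays of 1 class and 0 of the other, Areg, the growth factor amphiregulin, was -4.06, -6.91, -4.66 and -6.50 on the carriers and -4.38, -1.83, -3.05 and -3.01 on the non-carriers. The classes overlapped, since WT lay below RUNX1_mutant. Eno2, the enolase best known from neurons, was -4.40, -4.61, -6.09 and -5.17 on the carriers and -3.69, -3.38, -3.10 and -2.65 on the non-carriers. The classes were separate, and on the scale of the processed signal Eno2 was at least 2.43-fold lower (limma adjusted p = 0.10). With normexp its measured difference was -0.45 (limma adjusted p = 0.50).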
